A study of Mus musculus with 2 samples.

Results

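Transcripts of 10 mouse genes of the LSD1-CoREST histone demethylase complex and its closest relatives were examined in embryonic heart. The genes were given as a list of symbols: the demethylases Kdm1a (LSD1) and Kdm1b (LSD2), the CoREST scaffolds Rcor1, Rcor2 and Rcor3, the deacetylases Hdac1 and Hdac2, and the associated proteins Hmg20b, Phf21a and Gse1. All 10 had an entry among the 55348 gene entries of the count tables, and all 10 were among the 14717 genes that reached a mean of 1 CPM (reads per 1e6 reads on genes, after scaling). The series held 2 RNA-seq libraries of E13.5 hearts of strain 129sv, with no treatment named. One came from wild-type hearts and the other from hearts homozygous for the H222P missense allele of Lmna (Lmna H222P/H222P). Lmna encodes lamins A and C, which line the inside of the nuclear envelope. H222P mice carry the allele in every cell and are used as a model of the muscle and heart forms of laminopathy, the diseases caused by LMNA mutations. The series title names LSD1 as the target of an intervention, but neither library is labelled as treated with an inhibitor. The sources used here do not give how many hearts went into each library, or of which sex.

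LSD1 is an FAD-dependent enzyme that removes methyl groups from mono- and dimethylated H3K4, a histone mark of active promoters and enhancers. On nucleosomes it works in a complex with a CoREST protein, which bridges it to the deacetylases HDAC1 or HDAC2, so that acetyl and methyl marks can be removed together. Transcription factors with a SNAG domain (GFI1, GFI1B, SNAI1, INSM1) and the neuronal repressor REST bring the complex to its target genes. In many lineages, blood and neurons among them, the complex silences genes of other cell fates. Mice with reduced LSD1 function are known to have defects of heart development.

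The gene counts summed to 32669225 reads for wild type and 25120790 for Lmna H222P/H222P. With 1 library per genotype the comparison has no replicate check: no test was run, and each ratio compares these 2 libraries, not the genotypes. The 95% intervals are exact Clopper-Pearson intervals that cover counting error only, and, since the labels name no molecular identifiers, reads are not taken as independent molecules. A missense allele is not seen in counts per gene, so the counts do not check the genotype labels. Cardiomyocyte markers were abundant in both libraries, with a summed level of 25029 CPM over 10 genes in wild type and 14141 CPM in H222P, and 7 of the 10 were at least 1.5-fold lower in H222P. All 10 hepatocyte markers were higher in H222P by at least 1.5-fold (summed level 32.0 CPM in wild type and 5786 CPM in H222P), as were 9 of 10 red cell precursor markers (425 and 2541 CPM) and 6 of 10 neuron and glia markers (48.8 and 88.2 CPM). No gene of these lists was at 0 reads in either library. Of the endothelial markers 6 of 8, and 5 of 8 fibroblast and mesenchyme markers were at least 1.5-fold lower, with summed levels of 1067 and 693 CPM and of 3819 and 1831 CPM. The fibroblast and mesenchyme markers were mixed, as 2 of them were at least 1.5-fold higher in H222P. These were Pdgfra (76.9 and 185.7 CPM) and Twist1 (10.7 and 25.1 CPM). Scaled by total reads on genes, 2 endothelial and 5 cardiomyocyte markers were lower by that bound. The part of this difference in cell types in any ratio given here was not tested, and in whole tissue fewer cells of a type and less RNA per cell cannot be told apart.

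None of the 10 genes differed by 1.5-fold between the libraries in either direction. Of all 14717 genes, 1645 (11.2%) were at least 1.5-fold higher and 1633 (11.1%) at least 1.5-fold lower in H222P. Scaling by total reads on genes in place of TMM (edgeR's trimmed mean of M values) changed these counts to 2242 and 1139. At a smaller bound of 0.32 on the log2 scale, Rcor1 and Rcor2 were higher and Rcor3 was lower, and the other 7 genes lay between. Over all genes, 20.8% were higher and 21.9% lower by that bound. The median log2 ratio of the 10 genes, H222P over wild type, was 0.14, with 7 genes above 0. The median of all genes was 0.00, with quartiles of -0.27 and 0.26 and 50.3% of genes above 0. The counting interval lay above 0 for 5 genes (Kdm1a, Rcor1, Rcor2, Hdac1 and Gse1), below 0 for Rcor3 and Hdac2, and on both sides of 0 for Kdm1b, Hmg20b and Phf21a.

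**Figure D1:**
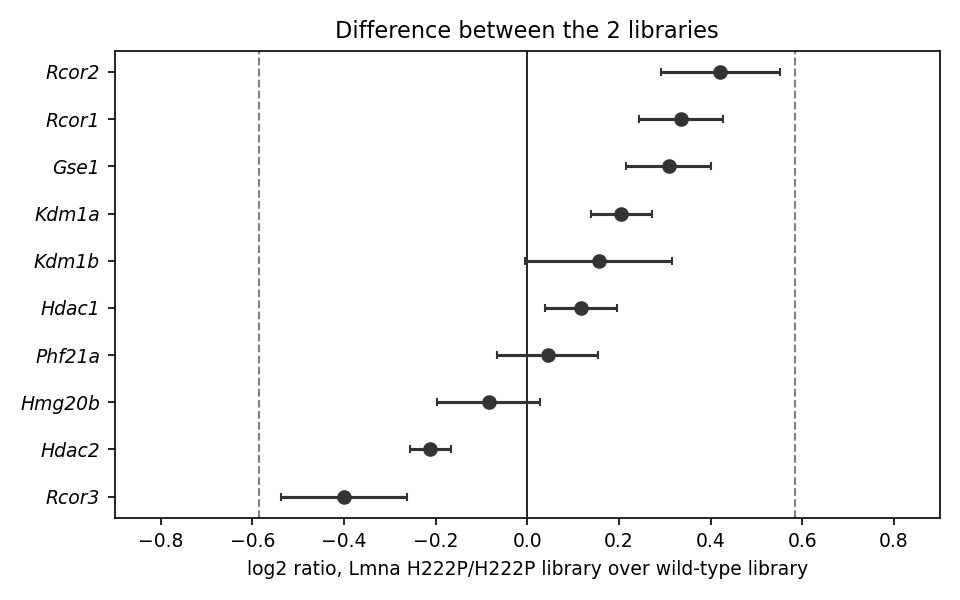
Difference between the libraries for each gene of the complex. Points are log2 ratios of the Lmna H222P/H222P library over the wild-type library after TMM scaling, bars are 95% counting intervals, and dashed lines mark 1.5-fold in each direction. All 10 intervals lie between the dashed lines, from Rcor3 at -0.40 to Rcor2 at 0.42.

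Levels were compared between genes as CPM per kilobase of the longest annotated transcript. In wild type Hdac2 had the highest level, 94.8 CPM per kb, and Kdm1b the lowest, 4.23, a ratio of 22.4. Hdac1 (43.4 CPM per kb) and Kdm1a (38.5) followed Hdac2, then Hmg20b (18.6), Rcor1 (10.5), Rcor2 (10.3), Rcor3 (9.47), Gse1 (8.31) and Phf21a (7.29). The intervals of neighbours in this order overlapped for Rcor1 and Rcor2 and for Rcor2 and Rcor3, and for no other pair. In H222P the highest was again Hdac2 (81.8 CPM per kb) and the lowest Kdm1b (4.71), a ratio of 17.4. There Hdac1 (47.1) and Kdm1a (44.4) overlapped, followed by Hmg20b (17.6), then Rcor2 (13.8) and Rcor1 (13.3), which overlapped, Gse1 (10.3), and Phf21a (7.52) and Rcor3 (7.18), which also overlapped. Hdac2, Hdac1 and Kdm1a thus took the top 3 places in each library. With this length Rcor3 lay above Gse1 and Phf21a in wild type and not in H222P. With the union of all exons as the length, Rcor3 was the lowest of the 10 in both libraries (2.63 CPM per kb in wild type and 2.00 in H222P), below Kdm1b (3.84 and 4.28), Phf21a (5.39 and 5.56) and Gse1 (5.72 and 7.08), so its place did not change. The median level of all measured genes was 7.42 CPM per kb in wild type and 7.55 in H222P, and 8 and 7 of the 10 genes lay above it.

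**Figure D2:**
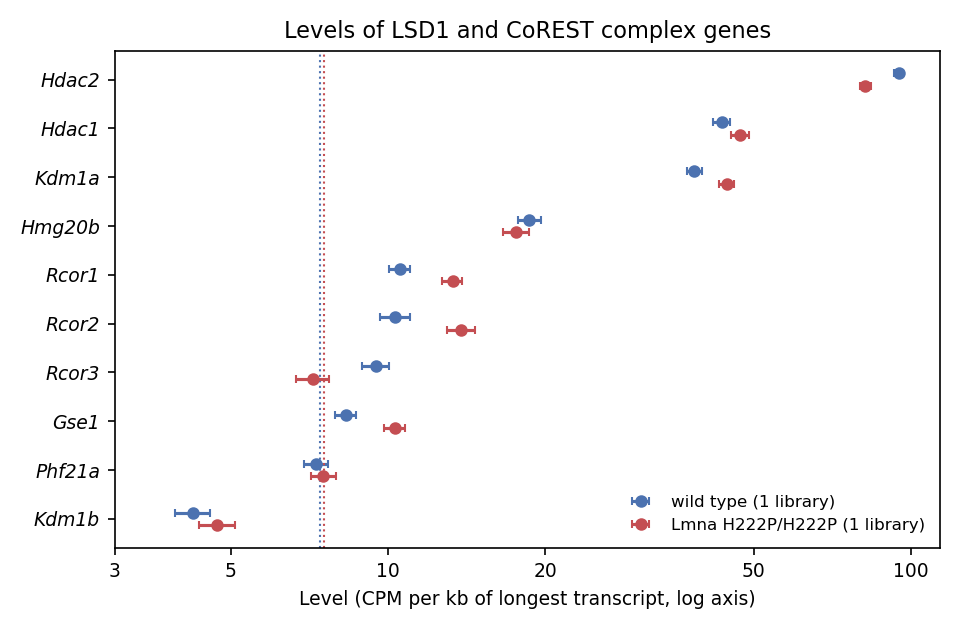
Levels of the 10 genes in each library, in CPM per kb of the longest transcript on a log axis. Blue points are the wild-type library and red points the Lmna H222P/H222P library, bars are 95% counting intervals, and dotted lines are the medians of all measured genes in each library. Hdac2, Hdac1 and Kdm1a lie at or above 38.5 CPM per kb in both libraries, and Kdm1b lies below both medians.

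Kdm1a encodes LSD1 itself and lies on the reverse strand of chromosome 4 (mm10, 136550540 to 136602723). It had 3628 reads in wild type and 3549 in H222P, or 116.7 and 134.5 CPM after scaling. The H222P library was thus the higher one by a log2 ratio of 0.21 (95% interval 0.14 to 0.27), a 1.15-fold difference. Of all measured genes, 29.2% were at least as far above 0. In level per kb, Kdm1a stood above 88.3% of the 14565 measured genes with a known length in wild type and above 90.7% in H222P. Transcripts of Kdm1a, the gene that names the set, were thus present in both libraries.

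Kdm1b encodes LSD2, a second H3K4 demethylase that acts in transcribed gene bodies and in oocytes and works without a CoREST protein. It lies on chromosome 13 (47043499 to 47085279, forward strand). Its reads were 656 in wild type and 620 in H222P, or 21.1 and 23.5 CPM, a log2 ratio of 0.16 (-0.01 to 0.32). This interval reaches just below 0, and it lay above 0 with total reads on genes as the scaling (0.30, 0.14 to 0.46) and with a filter at 5 CPM (0.17, 0.0046 to 0.33). At equal length Kdm1a made up 90.1% of the reads of the pair in wild type (89.3 to 90.8%) and 90.4% in H222P (89.6 to 91.1%). With union exons as the length, the Kdm1a share was 85.4% in wild type and 85.9% in H222P. LSD1 transcripts thus outnumbered LSD2 transcripts by a like margin in both libraries with either length, but the size of the margin depends on the length. The ratio of Kdm1a to Kdm1b reads, which does not depend on the scaling, changed 1.04-fold (0.917 to 1.17).

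The 3 scaffolds showed the widest differences of the set, and not all in the same direction. They share the ELM2 and SANT domains that hold LSD1 and the deacetylases. Rcor1 (chromosome 12, 111039351 to 111115901, forward strand) encodes CoREST1, the founding member, first found as a partner of REST. It had 1861 reads in wild type and 1992 in H222P, or 59.8 and 75.5 CPM. Its log2 ratio was 0.34 (0.24 to 0.43), or 1.26-fold higher in H222P, and 20.1% of genes were at least as far above 0. The interval overlapped that of Gse1 (0.22 to 0.40), so counting error alone leaves the order of Rcor1 and Gse1 open.

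Rcor2 (chromosome 19, 7267325 to 7275225, forward strand) encodes CoREST2, known from embryonic stem cells and neural progenitors. Its reads were 904 in wild type and 1027 in H222P, or 29.1 and 38.9 CPM. This was the highest ratio of the 10, at a log2 value of 0.42 (0.29 to 0.55), or 1.34-fold, a distance above 0 that 15.9% of genes reached. Rcor3 (chromosome 1, 192098546 to 192138062, reverse strand) encodes CoREST3, which has been described as a weaker partner that can oppose demethylation by LSD1. It moved the other way, with 1116 reads in wild type and 718 in H222P, or 35.9 and 27.2 CPM. Its log2 ratio of -0.40 (-0.54 to -0.26), or 1.32-fold lower in H222P, was the lowest of the set, and 17.9% of genes were at least as far below 0.

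The make-up of the scaffold transcripts therefore differed between the libraries. At equal length, the shares of Rcor1, Rcor2 and Rcor3 in wild type lay close together, at 34.8%, 34.0% and 31.3%. In H222P they were 38.8%, 40.3% and 21%. The interval for Rcor3 was 29.8 to 32.8% in wild type and 19.6 to 22.3% in H222P, so the counting intervals were apart. Relative to Rcor3, Rcor1 changed from 1.67 to 2.77 reads per read (1.66-fold, 1.48 to 1.87) and Rcor2 from 0.810 to 1.43 (1.77-fold, 1.55 to 2.01). The ratio of Rcor1 to Rcor2 changed 0.942-fold (0.843 to 1.05), an interval that holds 1. These ratios within the family do not depend on the scaling between libraries. Summed over the 3 genes, the level was 30.3 CPM per kb in wild type and 34.2 in H222P.

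The shares of Rcor3 depend on the length assigned to it. Release M21 lists 14 transcripts for Rcor3, of which the longest has 3791 bases, while the union of its exons has 13622 bases. With union exons the Rcor3 share was 11.8% in wild type and 7.24% in H222P, the Rcor1 shares 47.1% and 48.1%, and the Rcor2 shares 41.2% and 44.7%. The share of Rcor3 was lower in H222P with either length. Predicted genes on the opposite strand overlap Rcor3, among them Gm10516 by 1167 bases (37 reads in wild type and 20 in H222P) and Gm26879 by 1083 bases (1 and 0 reads). When both strands were counted together, Rcor3 kept 760 and 502 reads, with shares of 23.5% in wild type and 15.6% in H222P.

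**Figure D3:**
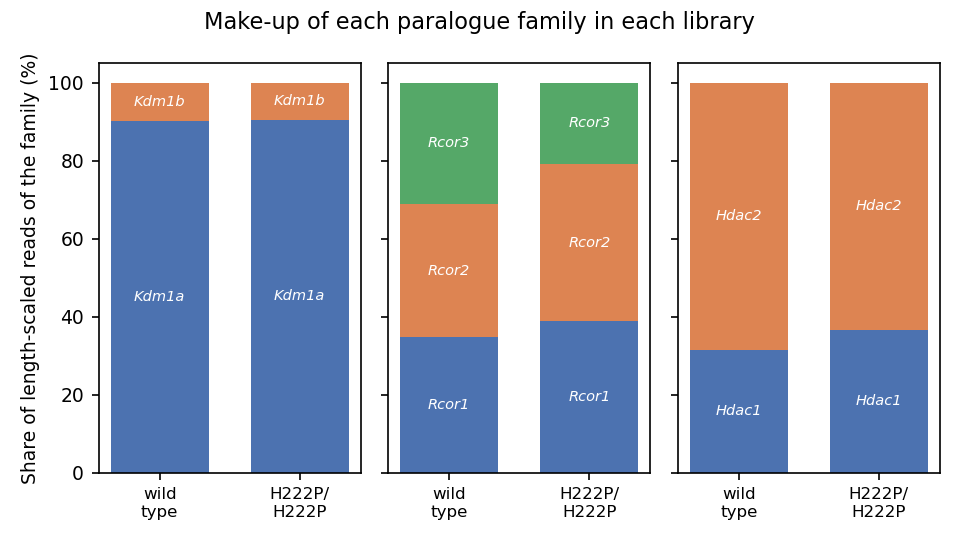
Make-up of the Kdm1, Rcor and Hdac1-Hdac2 families by library, as the percent share of reads after division by the length of the longest transcript. Bars sum to 100% and have no error bars. The Rcor3 share is 31.3% in wild type and 21% in H222P, the Hdac1 share 31.4% and 36.5%, and the Kdm1a share 90.1% and 90.4%.

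The sequence upstream of Kdm1a, Rcor2 and Rcor3 is given here because these are the demethylase that names the set and the scaffolds with the highest and lowest ratios. The stretches end at the base before the first annotated base of the gene, are written 5′ to 3′ on the gene's strand, and come from RefSeq for GRCm38 (mm10). Capitals mark each CG dinucleotide, which reads the same on both strands.
Kdm1a, chr4:136602724-136602973, reverse strand: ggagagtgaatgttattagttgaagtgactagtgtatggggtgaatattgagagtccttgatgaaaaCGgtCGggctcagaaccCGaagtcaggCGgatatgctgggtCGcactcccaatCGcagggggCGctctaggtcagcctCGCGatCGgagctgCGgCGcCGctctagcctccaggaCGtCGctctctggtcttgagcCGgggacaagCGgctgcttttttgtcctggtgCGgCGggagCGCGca
Rcor2, chr19:7267144-7267324, forward strand: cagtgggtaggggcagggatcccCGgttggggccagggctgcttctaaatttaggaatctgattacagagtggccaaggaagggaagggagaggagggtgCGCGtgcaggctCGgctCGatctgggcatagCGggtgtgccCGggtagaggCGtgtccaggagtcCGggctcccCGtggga
Rcor3, chr1:192138063-192138290, reverse strand: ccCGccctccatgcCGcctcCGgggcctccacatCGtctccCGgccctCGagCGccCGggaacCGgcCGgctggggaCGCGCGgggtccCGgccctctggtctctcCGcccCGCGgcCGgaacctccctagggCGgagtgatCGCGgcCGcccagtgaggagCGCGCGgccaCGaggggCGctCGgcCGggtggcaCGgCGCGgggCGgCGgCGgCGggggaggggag
The Kdm1a stretch of 250 bases holds 21 CG dinucleotides, the Rcor2 stretch of 181 bases 10, and the Rcor3 stretch of 228 bases 36. In full promoter windows of 300 bases the counts were 29 for Kdm1a, 21 for Rcor2 and 47 for Rcor3, where the median of all 32851 mouse windows was 7. As many CG dinucleotides were found in 12.9% of windows for Kdm1a, 24.8% for Rcor2 and 1.44% for Rcor3. Of the other members with an entry, Rcor1 had 31, Kdm1b 26, Hdac2 36 and the 3 windows of Hmg20b 34 or 35. The 3 windows of Gse1 had 17, 23 and 37, and the 2 of Phf21a 31 and 1, the last below the median. All 3 scaffold promoters are thus rich in CG, with Rcor3 the richest. The reference genome is C57BL/6J, and these samples are 129sv. A count of letters is a description, and methylation was not measured.

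Hdac1 and Hdac2 encode the deacetylases of the complex. They are close paralogues that also serve the NuRD and SIN3 complexes. Hdac2 (chromosome 10, 36974544 to 37001889, forward strand) had 9581 reads in wild type and 7019 in H222P, or 308.1 and 266.0 CPM. Its log2 ratio was -0.21 (-0.26 to -0.17), or 1.16-fold lower in H222P, a distance that 29.2% of genes reached below 0. Hdac1 (chromosome 4, 129516104 to 129542713, reverse strand) had 2754 and 2535 reads, or 88.6 and 96.1 CPM, with a log2 ratio of 0.12 (0.04 to 0.20). The balance of the pair thus differed: at equal length the Hdac1 share was 31.4% in wild type (30.5 to 32.4%) and 36.5% in H222P (35.5 to 37.6%). In reads, Hdac1 per Hdac2 was 0.287 in wild type and 0.361 in H222P, a 1.26-fold change (1.18 to 1.34) that does not depend on the scaling. With union exons as the length, the Hdac1 share was 27.2% in wild type and 31.9% in H222P. Hdac2 remained the more abundant of the pair in both libraries with either length. The summed level of the pair was 138.2 CPM per kb in wild type and 129.0 in H222P.

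Counts of Hdac1 are uncertain because a processed pseudogene, Gm10093 (chromosome 17, 78491582 to 78493025, forward strand), carries a copy of its coding sequence. The copy differs at 9 of 1444 aligned bases, an identity of 99.4%. A stretch of 120 bases that holds 6 of the 9 differences is printed to show how few positions tell a read of one from a read of the other, with the differing bases in capitals. The Hdac1 stretch is coding bases 363 to 482, on the reverse strand of chromosome 4.
Hdac1, chr4:129522975-129523094: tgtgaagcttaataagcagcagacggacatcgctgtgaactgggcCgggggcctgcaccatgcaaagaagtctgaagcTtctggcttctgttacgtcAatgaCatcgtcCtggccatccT
Gm10093, chr17:78491944-78492063: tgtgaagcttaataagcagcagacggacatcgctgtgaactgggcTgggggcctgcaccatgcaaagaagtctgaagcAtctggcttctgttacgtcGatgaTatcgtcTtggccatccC
Of all stretches of 50 bases in the Hdac1 coding sequence, 80.1% occur unchanged in Gm10093, as do 67.0% of stretches of 100 bases and 54.2% of those of 150 bases. A single read that lies within such a stretch would map to both places, and reads with several places are kept out of the gene counts. Gm10093 had 861 reads in wild type and 981 in H222P, a log2 ratio of 0.43 (0.29 to 0.56). These were 23.8% and 27.9% of the reads on Hdac1 and Gm10093 together. With both summed, the log2 ratio was 0.20 (0.13 to 0.26) in place of 0.12, and the Hdac1 share of the deacetylase pair was 37.6% in wild type and 44.4% in H222P. How many of the Gm10093 reads came from Hdac1 was not tested. Further copies of lower identity are annotated. One of them, Gm4864 on chromosome 12, is 94.6% identical over 1469 bases. It had 110 reads in wild type and 151 in H222P, which gives a log2 ratio of 0.69 (0.33 to 1.06).

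The 3 associated proteins were Hmg20b, Phf21a and Gse1. Hmg20b (chromosome 10, 81346048 to 81350480, reverse strand) encodes BRAF35, a DNA-binding HMG-box subunit. It had 1449 reads in wild type and 1160 in H222P, or 46.6 and 44.0 CPM, with a log2 ratio of -0.08 (-0.20 to 0.03) that became 0.06 when scaled by total reads. Phf21a (chromosome 2, 92093117 to 92364666, forward strand) encodes BHC80, whose PHD finger binds the unmethylated H3K4 that LSD1 leaves. Its reads were 1435 and 1256, or 46.1 and 47.6 CPM, a log2 ratio of 0.04 (-0.07 to 0.16). Both intervals thus held 0 with TMM scaling, while with total reads that of Phf21a did not (0.19, 0.08 to 0.30).

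Gse1 (chromosome 8, 120228456 to 120581390, forward strand) encodes a coiled-coil protein found with the complex. It was the third highest of the set by ratio. Its reads were 1841 in wild type and 1935 in H222P, or 59.2 and 73.3 CPM, a log2 ratio of 0.31 (0.22 to 0.40), or 1.24-fold higher in H222P. Gse1 overlaps Gins2 on the opposite strand by 2758 bases, and Gins2 had a log2 ratio of 0.02. With both strands counted together Gse1 kept 1085 and 1160 reads.

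The transcripts of the complex did not keep constant proportions between the libraries. Protein was not measured, and how many other gene pairs changed as much was not computed. Per Rcor1 read, Kdm1a changed 0.914-fold (0.844 to 0.989) between the libraries, and per Hdac2 read it changed 1.34-fold (1.26 to 1.41). LSD1 transcripts were thus slightly lower relative to Rcor1 and higher relative to Hdac2 in H222P. The summed CPM of the 10 genes was 811.1 in wild type and 826.6 in H222P, a ratio of 1.02.

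The genes around the complex were read from lists of known function. Among 6 further CoREST-associated proteins, none differed by 1.5-fold and the median log2 ratio was 0.06. They ran from Zmym3, a zinc finger subunit (-0.12, with 69.7 CPM in wild type and 64.2 in H222P), to Ctbp1, a corepressor (0.15, with 191 and 212 CPM). Among 9 other ELM2-SANT proteins that hold HDAC1 or HDAC2 in other complexes, none differed by 1.5-fold, the median was 0.25 and 8 lay above 0. Mta2, a NuRD scaffold and the most abundant of them, had the highest ratio at 0.36, with 120.4 CPM in wild type and 154.3 in H222P. Mier3 had the lowest, at -0.03. The ratio of Rcor3 was lower than that of any of these 9 scaffolds, and the ratio of Rcor2 was higher. The counting interval of Rcor3 (-0.54 to -0.26) was apart from that of Mier3 (-0.15 to 0.08). That of Rcor2 (0.29 to 0.55) overlapped that of Mta2 (0.29 to 0.42), so counting error alone leaves their order open.

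In the other deacetylase complexes 1 gene, Sap30, was past 1.5-fold with TMM scaling. With total reads no SIN3 subunit was lower by that bound and 1 further NuRD subunit was higher. Of 10 further NuRD subunits, 9 were measured and none differed by 1.5-fold, with a median of 0.14. Chd4, the remodelling ATPase, was the most abundant at 447 and 547 CPM, with a log2 ratio of 0.29. Chd3, its paralogue, was the highest at 0.53, and Rbbp4, a histone chaperone, was the lowest at -0.15. Of 14 SIN3 subunits, 13 were measured, with a median of 0.06. One of them, Sap30, an adaptor of the complex, was at least 1.5-fold lower in H222P. It had 1817 reads in wild type and 985 in H222P, or 58.4 and 37.3 CPM, a log2 ratio of -0.65 (-0.76 to -0.53). Sin3a, a scaffold, was the highest at 0.29, and Sin3b, the other scaffold and the most abundant by the mean of both libraries, had a ratio of -0.20. The 7 genes of the NCoR complex with Hdac8 had a median of 0.14 and none past 1.5-fold. Ncor1, the most abundant of them, had a ratio of -0.02, Gps2 the highest at 0.31 and Tbl1x the lowest at -0.06.

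The other enzymes of H3K4 methylation showed no 1.5-fold difference among 9 genes, 8 of which lay above 0, with a median of 0.28. With total reads as the scaling, 1 of the 9 was higher by that bound. Kdm5b, a demethylase of trimethylated H3K4, was the highest at 0.50, with 96.9 CPM in wild type and 137 in H222P. Kdm5c, a demethylase of the same mark and the most abundant of the list, was the lowest at -0.09. The methyltransferase genes Kmt2a and Kmt2b each had a ratio of 0.37. The 5 genes of FAD synthesis and LSD1 turnover had a median of -0.05 and none past 1.5-fold. Usp7, a deubiquitinase that stabilises LSD1, was the highest at 0.37. Usp28, another such enzyme, was the lowest at -0.41, with 142 CPM in wild type and 107 in H222P.

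Among 15 transcription factors known to recruit the complex, 10 were measured, 3 were at least 1.5-fold higher in H222P and none was lower by that bound, where 11.2% of all genes were higher. Of these 3, Gfi1b and Insm1 were under 1 CPM in wild type and passed the filter through H222P alone, so their being called is no support for a shift of the list. Gfi1b, which recruits LSD1-CoREST in precursors of red cells and platelets, had 18 reads in wild type and 242 in H222P, or 0.579 and 9.17 CPM. The log2 ratio was 3.95 (3.30 to 4.77), or 15.4-fold. Tal1, a blood and endothelial factor that binds LSD1, had 587 reads in wild type and 2576 in H222P, or 18.9 and 97.6 CPM, a log2 ratio of 2.37 (2.24 to 2.50), or 5.17-fold. Both genes are expressed in red cell precursors, whose markers summed to 425 CPM in wild type and 2541 CPM in H222P, a 5.98-fold difference. Tfrc alone held 223 and 1063 CPM of these sums. The log2 ratios of the markers ran from 0.57 (Alas2) to 7.09 (Hemgn), with a median of 4.67. Insm1, a factor of neuroendocrine and neuronal precursors, had 7 and 52 reads, or 0.225 and 1.97 CPM, a log2 ratio of 3.04 (1.99 to 4.51). Neuron and glia markers were 1.81-fold higher in sum. The part of these cell types in the 3 ratios was not tested.

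The other 7 measured recruiting factors stayed within 1.5-fold with TMM scaling. With total reads on genes as the scaling, 4 factors of the list were higher by that bound in place of 3. Rest, the repressor of neuronal genes, was the most abundant of the list by the mean of both libraries, with 2555 reads in wild type and 2516 in H222P, or 82.2 and 95.3 CPM, a log2 ratio of 0.21 (0.13 to 0.29). This was close to the ratio of Kdm1a. Zeb1, a factor of mesenchymal cells, had 2643 and 1896 reads and a ratio of -0.24 (-0.33 to -0.16). Snai1, which recruits LSD1 through its SNAG domain in epithelial-to-mesenchymal transition, had 172 and 211 reads and a ratio of 0.53 (0.23 to 0.83). Snai2 (-0.03), Zeb2 (0.02) and Rreb1 (0.11) lay near 0, and Prdm1, with 51 and 29 reads, had the lowest ratio at -0.57 (-1.29 to 0.11). The other 5 factors did not reach a mean of 1 CPM. Of these, Snai3 had 28 reads in wild type and 15 in H222P, Scrt1 4 and 8, Gfi1 1 and 6 and Scrt2 1 and 1. Nr2e1 had 0 in both, where 3 reads correspond to 0.0965 CPM in wild type and 0.114 CPM in H222P.

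Of 20 neuronal genes listed as repressed through REST, 12 were measured, 7 were at least 1.5-fold higher in H222P and none was lower. Of all genes, 11.2% were higher by that bound. Their median log2 ratio was 0.65. Of the 7, Scg3, L1cam and Syp were under 1 CPM in wild type (0.450, 0.836 and 0.997) and passed the filter through H222P alone, so the count and the median are a description of the genes that passed. Tubb3, a neuronal tubulin, was the highest, with 93 reads in wild type and 318 in H222P, or 2.99 and 12.1 CPM, a 4.01-fold difference. Nefl, a neurofilament subunit and the most abundant by mean, had 174 and 282 reads and a log2 ratio of 0.93 (0.66 to 1.21). Stmn2, a growth cone protein, was the lowest at -0.07, with 206 and 166 reads. L1cam (1.94), Scg3 (1.79), Bdnf (1.09), Syt4 (0.69) and Syp (0.60) were the other 5 past 1.5-fold. The counting interval of Syp, with 31 and 40 reads, held 0 (-0.11 to 1.33). That of Syt4, with 32 and 44 reads, began just above 0 (0.0067 to 1.40). The sum of all 20 was 34.0 CPM in wild type and 60.4 in H222P, a 1.78-fold difference. The separate list of neuron and glia markers was 1.81-fold higher in sum. Its part in the difference was not tested.

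**Figure D4:**
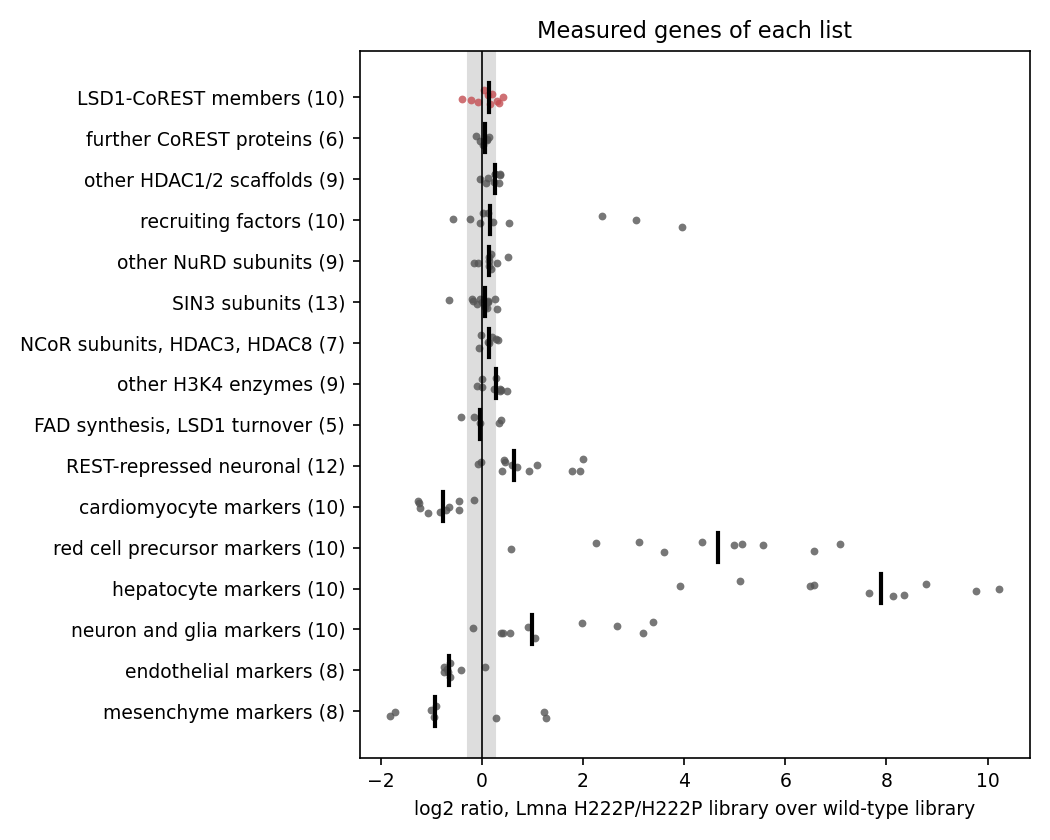
Log2 ratios of the measured genes of each list, Lmna H222P/H222P library over wild-type library. Each point is a gene, black bars are list medians, the number of measured genes stands in brackets, and the grey band spans the quartiles of all measured genes. The 10 genes of the LSD1-CoREST complex (red, median 0.14) lie between -0.40 and 0.42, while hepatocyte markers have a median of 7.89 and cardiomyocyte markers a median of -0.77.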

How the data were processed

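RNA was extracted with a Zymo kit, per the labels. The tables hold deposited read counts for each gene, whole and not normalized. STAR, HTSeq, DESeq and mm10 are named in the submitters' processing notes, with neither versions nor roles, and the sources used here do not give the annotation release. Of 3 deposited count columns the reverse-strand one, with 19.3 and 20.5 times the reads of the forward-strand one, was used. Genes carried 82.8% and 82.0% of all reads, and 4 summary entries were left out. Reads mapped to several places (5.37% and 6.09%) are not in the counts, which lowers genes with copies.

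TMM factors came from edgeR 4.0.16 (0.952 and 1.050). Log2 ratios used a prior count of 0.5 and a minimum mean of 1 CPM. Intervals were computed with scipy 1.17.1 and tested on simulated data. Lengths and coordinates came from GENCODE M21 (GRCm38), and copies from blastn 2.17.0 (at least 90% identity over 300 bases). Named genes were all members and, in each list, the most abundant, the highest, the lowest and those past 1.5-fold in pathway lists; other genes were named for completeness after their values were seen. The members and lists were chosen with earlier results of these data known. One gene is not reported here.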

Additional observations from a re-analysis of the deposited data

Results flagged for a closer look

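Reads on the strand opposite to Kdm1b, which no comparison of the report used, numbered 1989 in wild type and 3236 in H222P, against 656 and 620 on the strand of Kdm1b. They made up 75.2% and 83.9% of the reads of both strands over the gene, and their log2 ratio was 0.94 (95% counting interval 0.86 to 1.02). What singles them out is a signal in a strand column that was otherwise unused, at a level above that of the gene itself. The Kdm1b gene overlaps Dek, a chromatin protein gene on the opposite strand, by 505 bases (chromosome 13, 47084775 to 47085279), and Dek had 9234 and 14260 reads with a log2 ratio of 0.86 (0.83 to 0.90). Tpmt, also on the opposite strand, overlaps Kdm1b by 1239 bases. It had 549 reads in wild type and 449 in H222P, a log2 ratio of -0.05 (-0.24 to 0.13). With both strands counted together, Kdm1b kept 653 reads in wild type and 611 in H222P. Whether the opposite-strand reads are those of Dek or Tpmt was not tested. Of the other members, Gse1 had 13% and 9.83% of its reads on the opposite strand, and the remaining 8 had at most 1.95%.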

How the results depend on the processing

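No ratio of the 10 genes crossed 1.5-fold under any scaling, filter, prior count or strand column tried. Total reads on genes as the scaling moved the median of all genes to 0.145, the members' median to 0.28, the recruiting factors' median to 0.31 and the REST-repressed genes' median to 0.79. It moved 9 of the 10 member ratios past their counting interval, among them Kdm1a to 0.35, Rcor2 to 0.56, Rcor3 to -0.26 and Hdac2 to -0.07. Under it Sap30 was no longer past 1.5-fold, 1 further NuRD subunit and 1 H3K4 enzyme were higher, and lower endothelial markers fell from 6 to 2. DESeq2 1.42.0 size factors, TMM without 32 red cell, liver and globin genes, both filters, a prior count of 5 and unstranded reads left all 10 ratios inside it. Without a filter 27300 genes entered, with 6555 higher and 5861 lower by 1.5-fold, and 5 recruiting factors and 12 REST-repressed genes were higher and 1 recruiting factor lower. A mean of at least 5 CPM left 11745 genes with 880 higher and 1023 lower, and 1 recruiting factor, 2 REST-repressed genes and 3 neuron and glia markers higher. Unstranded reads gave the REST-repressed genes a median of 0.92. At a bound of 0.32 (log2), 2 members were higher, 1 member and 1 recruiting factor were lower, and 3064 genes were higher and 3221 lower. At 2-fold, 4 REST-repressed genes, and 888 genes in all, were higher and 621 lower. The filters and bounds change by construction what is counted, and the cause of the other shifts was not tested. No paired analysis was possible because each genotype has 1 library. Summing Hdac1 with its copy was chosen after seeing the data.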
